A study of Mus musculus with 6 samples.

Results

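The variable (V) segment genes of the T cell receptor were examined in the RNA of splenic T cells from DUSP4-/- and WT mice. The probe sets were chosen by name: every symbol that the array annotation gave to a probe set had to begin with Trav, Trbv, Trgv or Trdv, the prefixes of the alpha, beta, gamma and delta V segments. This gave 21 probe sets of the 41345 in the table, 18 for the alpha locus, 1 for the beta locus, 2 for the gamma locus and 0 for the delta locus, and each of them carried the name of 1 segment. A further probe set that named a Trav segment together with another gene was left out. The study hybridized total RNA from 3 DUSP4-/- and 3 WT samples to Affymetrix arrays, 1 array per sample, to ask how loss of the phosphatase DUSP4 altered transcripts in T cells. Both groups were primary spleen cells of mice 6 to 8 wk old, back-crossed to C57Bl/6, isolated by magnetic-assisted cell sorting (MACS) and used without culture or treatment. The DUSP4-/- samples came from knockout mice, for which no restriction of the deletion to a cell type is described, and the WT samples came from C57Bl/6 mice. The labels give neither the sex of the mice nor the number pooled. Samples of the 2 groups carried replicate numbers 1, 2 and 3 and are described by the study as independent pairs; nothing says that the arrays of a pair were processed together.

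A T cell makes its receptor by joining 1 V segment to a joining segment, with a diversity segment between them in the beta and delta chains. The joined gene is then transcribed from the promoter of the chosen V segment, so that in a mixed population the RNA of a segment reflects how many cells chose it and how much RNA each of them makes. Most T cells of the spleen carry an alpha and a beta chain, and a minority carry a gamma and a delta chain. The alpha locus is large, its V segments lie in duplicated clusters of near-identical copies, and the segments of the delta chain lie inside it. Fewer cells that use a segment and less RNA per cell cannot be told apart in such bulk samples.

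The array annotation covered few of these genes. RefSeq (GRCm38.p6) lists 130 Trav, 35 Trbv, 7 Trgv and 6 Trdv symbols, and the 21 probe sets named 5, 1, 2 and 0 of them. The Trav genes lie on chromosome 14, Trbv13-2 on chromosome 6 and the Trgv genes on chromosome 13. A symbol did not always stand for 1 probe set. The annotation gave Trav12-2 to 6 probe sets, Trav9d-3 to 5, and Trav7-4 and Trav14d-3-dv8 to 3 each. These are numbered below in the order of their identifiers. Which copy of a family each of them measures is not settled by a shared name, and near-identical copies can bind the same probes. Trav12-2 probe sets 1 and 3 (17299849 and 17299926) held identical values in all 6 arrays, and so did Trav12-2 probe sets 2 and 4 (17299857 and 17299934). The 21 probe sets thus held 19 distinct sets of values, and probe sets of 1 family may share signal beyond that.

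Values are log2 expression from RMA, on which 1 unit is a doubling. Probe sets differ in how strongly they bind, so only differences within a probe set are read as differences in RNA. Percentiles, positions against the array median and summed levels describe signal, not relative amounts of RNA between genes. The array medians over all probe sets lay between 4.99 and 5.07. The 18 alpha probe sets and Trbv13-2 read above the array median in all 6 arrays, and the gamma probe sets mostly below it. Dusp4 itself read 5.10, 6.18 and 6.78 in DUSP4-/- T cells, against 6.33, 7.61 and 8.13 in WT T cells, with differences of -1.23, -1.44 and -1.35 in the pairs (adjusted p = 1.00 from limma, and 0.214 when replicate number entered the fit as a block). Where its probes lie relative to the deleted part is not known. The T cell purity stated for the series was 90 to 95%. Cd3e, which encodes a chain of the receptor complex, read 11.49 to 11.78 over the 6 arrays, and Cd8a read 10.32 to 10.79 although the study's sort of naive CD4 T cells removes CD8+ cells; the labels say only T cells. Xist, made from the inactive X chromosome of females, read 10.12 and 10.09 in replicate 1 of the DUSP4-/- and the WT group and 3.58 to 3.87 in the other arrays, so that the replicate number went with apparent sex.

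**Figure D1:**
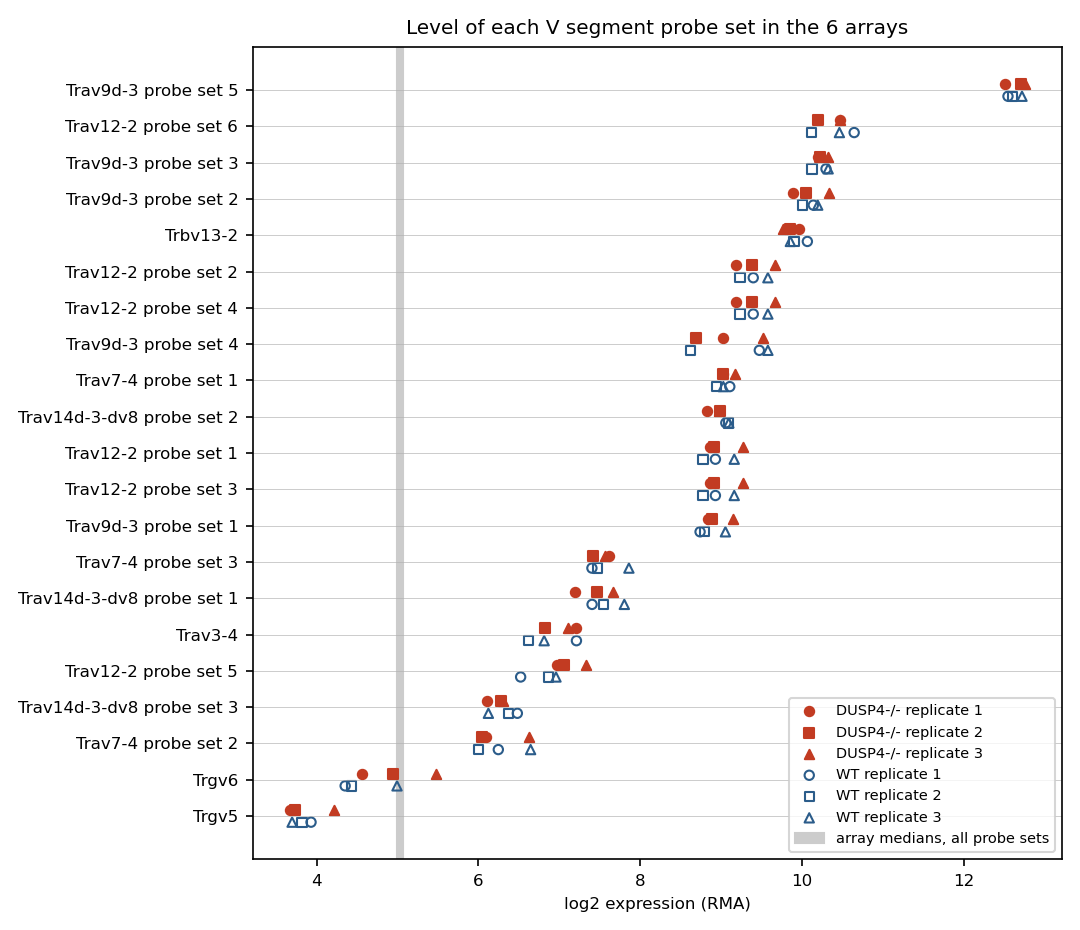
Level of each of the 21 V segment probe sets on the log2 scale (x axis), with filled red symbols for the 3 DUSP4-/- arrays, drawn above the open blue symbols for the 3 WT arrays, and a symbol shape for each replicate number. The gray band spans the array medians of 4.99 to 5.07; the alpha and beta probe sets lie to its right, and Trgv5 lies to its left.

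None of the V segments was called different between DUSP4-/- and WT T cells. The adjusted p from limma was 1.00 for each of the 21 probe sets, and 0% of the 25341 probe sets fitted passed the threshold of 0.05. At an unadjusted p under 0.05, 0 of the 21 passed, where 2.59% of all probe sets did. With the pairs in the fit, 2 of the 21 (9.52%) had an unadjusted p under 0.05, beside 6.48% of all probe sets, and the lowest adjusted p was 0.762. The 3 DUSP4-/- arrays lay above the 3 WT arrays without overlap in 1 of the 21 probe sets, beside 4.96% of all probe sets, and below them in 1, beside 2.43%. In either direction this was 2 of 21 (9.52%), beside 7.39%, where 1 probe set of 21 makes up 4.76%. In 6 of the 21 (28.6%) all pairs differed in 1 direction, beside 27.8% of all probe sets. These shares were near the background. Over all probe sets fitted the median difference was 0.017, and over the 18 alpha probe sets it was 0.0043, with 9 above 0 and 9 below. With identical values counted once it was -0.013, with 7 above 0 and 9 below, so the sign of the alpha median was not settled. In pairs 1, 2 and 3 the alpha medians were -0.13, 0.090 and 0.087, and 3, 14 and 12 of the 18 lay above 0. The medians in the same pairs were 0.0066, 0.011 and 0.036 over all probe sets, and 51.1%, 52.5% and 56.6% of them lay above 0. Over the probe sets brighter than the dimmest alpha member the medians were -0.050, 0.018 and 0.043, of the same signs as those of the alpha locus, and 37.6%, 56.3% and 61.9% lay above 0.

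**Figure D2:**
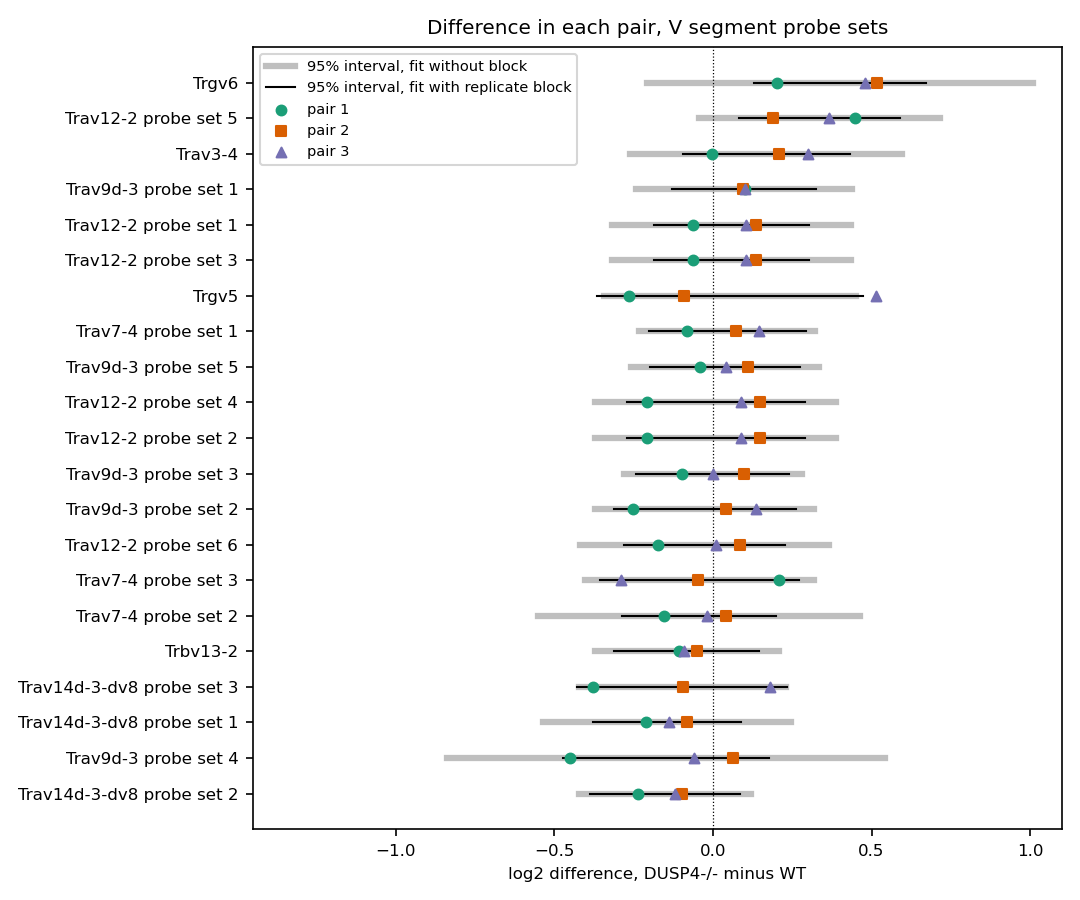
Difference between DUSP4-/- and WT in each pair (symbols, log2 scale on the x axis) for the 21 probe sets, with the 95% interval of the limma fit without a block (gray bar) and of the fit blocked on replicate number (black line). Every gray interval includes 0, and the black intervals of Trgv6 and of Trav12-2 probe set 5 do not.

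Trav9d-3 was measured by 5 probe sets, and their differences lay between -0.15 and 0.098. Probe set 5 (17300247) read 12.50, 12.71 and 12.76 in DUSP4-/- T cells, against 12.54, 12.60 and 12.72 in WT T cells, at the 99.9th percentile of the array. The groups interleaved, and the 95% interval of its fold, 1.03, ran from 0.835 to 1.26. Probe set 3 (17300054) read 10.20, 10.22 and 10.32 in DUSP4-/- T cells, against 10.30, 10.12 and 10.32 in WT T cells. This was the narrowest range of any member, 0.198 over the 6 arrays, and the groups overlapped. Probe set 2 (17299919) read 9.89, 10.05 and 10.33 in DUSP4-/- T cells, against 10.14, 10.00 and 10.19 in WT T cells. Here the DUSP4-/- arrays spanned the WT arrays on both sides. Probe set 1 (17299842) read 8.84, 8.89 and 9.15 in DUSP4-/- T cells, against 8.74, 8.79 and 9.05 in WT T cells. Its differences of 0.100, 0.094 and 0.099 in the pairs were nearly the same, smaller than the SD of 0.17 between arrays of 1 genotype, and the groups overlapped (adjusted p = 1.00 from limma, and 0.887 with the block).

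The widest spread of the alpha locus was also that of a Trav9d-3 probe set. Probe set 4 (17300181) read 9.02, 8.69 and 9.52 in DUSP4-/- T cells, against 9.47, 8.62 and 9.58 in WT T cells. Replicate 2 was the lowest array in both genotypes and replicate 3 the highest. The SD between arrays of 1 genotype was 0.473, and the difference was -0.15, with a 95% interval from -0.84 to 0.54. The DUSP4-/- array of pair 1 lay 0.45 below its partner, and the other pairs differed by 0.063 and -0.059.

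Trav12-2 held both the largest positive difference of the alpha locus and some of its smallest. Probe set 5 (17300032) read 6.97, 7.06 and 7.32 in DUSP4-/- T cells, against 6.52, 6.86 and 6.96 in WT T cells. It was the 1 probe set whose DUSP4-/- arrays all lay above the WT arrays, by a gap of 0.012 between the nearest arrays. It averaged 7.12 ± 0.18 in DUSP4-/- and 6.78 ± 0.23 in WT T cells (SD, n = 3 each), which differ by 0.33 with a standard error of 0.16 (limma, adjusted p = 1.00). The pair differences were 0.45, 0.19 and 0.37, and blocking on the pairs gave an interval from 0.081 to 0.59 and an adjusted p of 0.762 in limma. The other Trav12-2 probe sets had differences between -0.027 and 0.059. Of these, probe set 6 (17300173) read 10.47, 10.20 and 10.47 in DUSP4-/- T cells, against 10.64, 10.11 and 10.46 in WT T cells. The WT arrays spanned the DUSP4-/- arrays on both sides. The values shared by probe sets 2 and 4 were 9.19, 9.38 and 9.66 in DUSP4-/- T cells, against 9.40, 9.23 and 9.58 in WT T cells. Those shared by probe sets 1 and 3 were 8.87, 8.91 and 9.27 in DUSP4-/- T cells, against 8.93, 8.78 and 9.16 in WT T cells. In both the groups overlapped, and replicate 3 was the highest array of each genotype.

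The 3 probe sets of Trav14d-3-dv8 were the only alpha family in which every difference was below 0, from -0.15 to -0.097. The suffix dv marks a V segment that can join to alpha or delta joining segments, and RefSeq gives TCRAV2.5 as an older name. Probe set 2 (17299913) read 8.82, 8.99 and 8.98 in DUSP4-/- T cells, against 9.06, 9.09 and 9.10 in WT T cells. It was the 1 probe set whose DUSP4-/- arrays all lay below the WT arrays, by a gap of 0.067. Its averages were 8.93 ± 0.094 in DUSP4-/- and 9.08 ± 0.020 in WT T cells (SD, n = 3 each), a fold of 0.901 whose 95% interval ran from 0.747 to 1.09 (limma, adjusted p = 1.00, and 0.823 with the block). Probe set 1 (17299893) read 7.19, 7.46 and 7.66 in DUSP4-/- T cells, against 7.40, 7.55 and 7.80 in WT T cells. Each DUSP4-/- array lay below its partner, by 0.21, 0.083 and 0.14, against an SD of 0.22 between arrays of 1 genotype, and the groups overlapped. Probe set 3 (17300079) read 6.10, 6.28 and 6.30 in DUSP4-/- T cells, against 6.48, 6.37 and 6.12 in WT T cells, with a positive difference of 0.18 in pair 3. The order of the arrays in the WT group was thus the reverse of that in probe set 1.

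Trav7-4 and Trav3-4 had pair differences of both signs. Trav7-4 probe set 1 (17299796) read 9.03, 9.02 and 9.17 in DUSP4-/- T cells, against 9.11, 8.95 and 9.03 in WT T cells. Trav7-4 probe set 2 (17299991) read 6.09, 6.04 and 6.63 in DUSP4-/- T cells, against 6.25, 6.00 and 6.64 in WT T cells. In probe set 2 the arrays of replicate 3 stood apart from the other 4, and the pairs differed by -0.15, 0.042 and -0.019. Trav7-4 probe set 3 (17300155) read 7.61, 7.42 and 7.57 in DUSP4-/- T cells, against 7.40, 7.47 and 7.86 in WT T cells, with pair differences of 0.21, -0.048 and -0.29. Trav3-4 (17300189) read 7.21, 6.83 and 7.11 in DUSP4-/- T cells, against 7.21, 6.62 and 6.81 in WT T cells. Its replicate 1 arrays were level, and the DUSP4-/- arrays lay above WT by 0.21 and 0.30 in the other pairs (difference 0.17, 95% interval from -0.26 to 0.60).

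Trbv13-2 was the only beta segment measured. It encodes the Vbeta8.2 region, which invariant natural killer T cells of mice use often and which many conventional T cells also carry. It read 9.96, 9.85 and 9.76 in DUSP4-/- T cells, against 10.07, 9.90 and 9.86 in WT T cells (probe set 17457694). Each DUSP4-/- array was below its partner, by 0.11, 0.051 and 0.090, and the groups overlapped. Its fold was 0.944, and the 95% interval ran from 0.772 to 1.15 (limma, adjusted p = 1.00, and 0.906 with the block). The SD was 0.104 between arrays of 1 genotype and 0.020 once replicate number was taken out.

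Both gamma segments of the array annotation were mostly read under the array medians, Trgv6 at the 44.8th percentile of the array and Trgv5 at the 23.8th. Trgv6 encodes the V region of a fetal wave of gamma-delta T cells known in mice for making IL-17, and Trgv5, its neighbour in RefSeq, that of the gamma-delta T cells of the epidermis. Trgv6 (17285516) read 4.56, 4.95 and 5.47 in DUSP4-/- T cells, against 4.35, 4.43 and 4.99 in WT T cells. Only the DUSP4-/- replicate 3 array was above its array median. Each DUSP4-/- array lay above its partner, by 0.20, 0.52 and 0.48, and replicate 3 was the highest in both genotypes, so that the groups overlapped. It averaged 4.99 ± 0.46 in DUSP4-/- and 4.59 ± 0.35 in WT T cells (SD, n = 3 each), which differ by 0.40, with a 95% interval from -0.21 to 1.01 (limma, adjusted p = 1.00). With the block the interval ran from 0.13 to 0.67, at an adjusted p of 0.762 in limma. Trgv5 (17285519) read 3.67, 3.73 and 4.21 in DUSP4-/- T cells, against 3.93, 3.82 and 3.70 in WT T cells. It was below the median in all 6 arrays, and its pair differences of -0.26, -0.091 and 0.52 had both signs.

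Of 11 genes listed as gamma-delta T cell markers, 10 had a probe set, and 0 were called in either direction. Their median difference was 0.016, with 5 above 0 and 5 below. The list is not restricted to gamma-delta T cells. By staining for IL-17A protein the study counted Th17 cells among splenic CD4 T cells, and found them only slightly reduced in DUSP4-/- mice. In culture under Th17-polarizing conditions, it found the share of IL-17A+ cells significantly reduced among DUSP4-/- CD4 T cells. The arrays measured RNA of cells that were not cultured. Which cells made the RNA of the listed genes was not tested. Il17a, the cytokine, read 4.52, 4.79 and 4.93 in DUSP4-/- T cells, against 4.03, 4.41 and 3.89 in WT T cells, without overlap and with all values below the array medians (adjusted p = 1.00 from limma, and 0.752 with the block). Cd163l1, which encodes a scavenger receptor found on gamma-delta T cells of mice, read 5.69, 6.00 and 6.00 in DUSP4-/- T cells, against 5.13, 5.75 and 5.80 in WT T cells. Each DUSP4-/- array was above its partner, and the groups overlapped. The related 5830411N06Rik had pair differences of 0.37, 0.13 and 0.15. On the other side, the chemokine receptor Ccr6 lay below WT in each pair, by 0.40, 0.053 and 0.28, and Sox13, a transcription factor of the gamma-delta lineage, had pair differences of -0.58, -0.064 and 0.22.

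**Figure D3:**
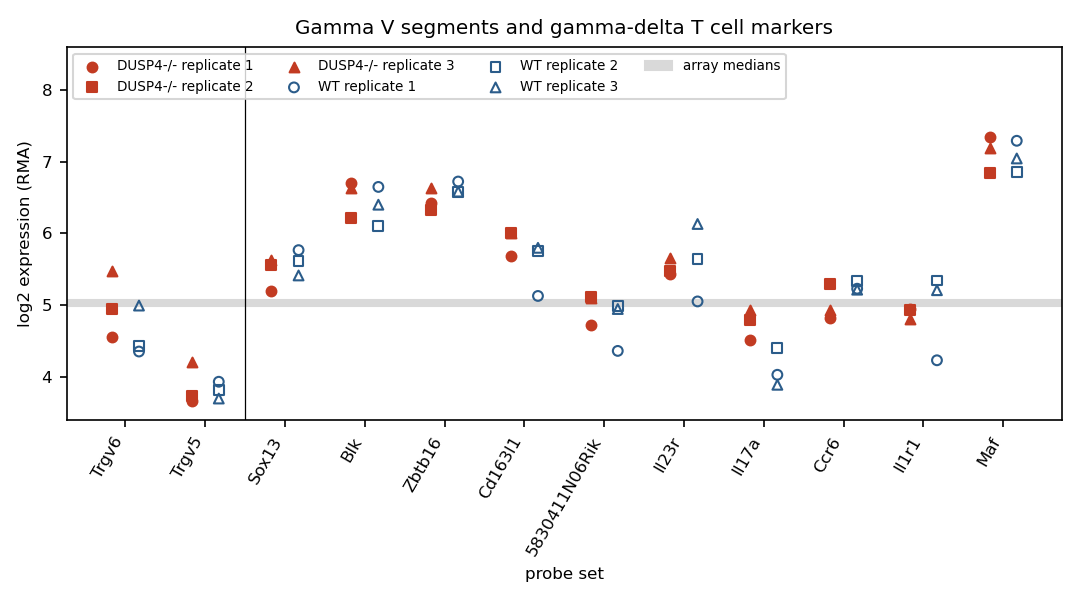
Levels of Trgv6 and Trgv5 (left of the vertical line) and of 10 genes listed as markers of gamma-delta T cells. The y axis is the log2 scale, starting above 0, with DUSP4-/- arrays in filled red to the left of WT arrays in open blue. Il17a has no overlap between the groups, Trgv6 and Cd163l1 overlap, and Trgv5 lies below the gray band of array medians.

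Among the V segments, the spread left within replicate pairs was mostly smaller than the spread between arrays of 1 genotype. The spread within pairs leaves out any constant difference between the genotypes, so it does not measure how alike paired arrays were. The SD left within pairs, after genotype and replicate number are both taken out, was smaller than the SD between arrays of 1 genotype in 19 of the 21 probe sets (90.5%), beside 68.4% of all probe sets fitted and 85.8% of those brighter than the dimmest alpha member, so that the share was close to that of probe sets of like brightness. The exceptions were Trgv5 and Trav14d-3-dv8 probe set 3. For the alpha locus the median SD was 0.207 between arrays of 1 genotype and 0.087 within pairs. The medians were 0.196 and 0.132 over all probe sets, and 0.183 and 0.084 over those brighter than the dimmest alpha member, close to the alpha values.

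**Figure D4:**
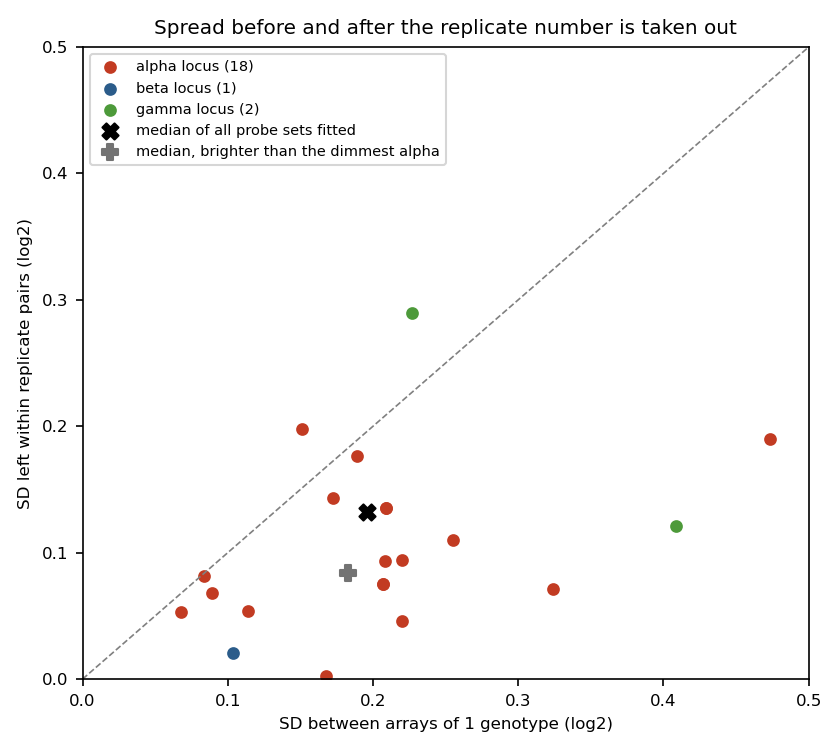
SD between arrays of 1 genotype (x axis) and SD left within replicate pairs (y axis), both in log2 units, for the alpha, beta and gamma probe sets, with the medians of all probe sets fitted (0.196 and 0.132) as a black cross and of those brighter than the dimmest alpha member (0.183 and 0.084) as a gray plus. The y axis leaves out any constant difference between the genotypes. Points below the dashed line of equality, 19 of the 21, have a smaller SD once genotype and replicate number are both taken out than between arrays of 1 genotype.

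The replicate number that stood highest was mostly 3. In 13 of the 21 probe sets (61.9%) replicate 3 was the highest array of both genotypes, beside 19.2% of all probe sets, and with identical values counted once in 11 of 19 (57.9%). In 12 of these 13 the probe set belonged to the alpha locus, and the other was Trgv6. The same replicate number, whichever it was, was highest in both genotypes in 15 of the 21 (71.4%), beside 50.9% of all probe sets and 68.0% of those brighter than the dimmest alpha member. The mean of the replicate 3 arrays lay above the probe set's own mean by a median of 0.18 over the 18 alpha probe sets, against 0.012 over all probe sets and -0.024 over those brighter than the dimmest alpha member. Replicate 3 was highest in both genotypes in all 5 Trav9d-3 and 5 of the 6 Trav12-2 probe sets, whose near-identical copies may share signal. It was so in 1 of 3 Trav14d-3-dv8 and 1 of 3 Trav7-4 probe sets, and in neither Trav3-4 nor Trgv5. The 13 probe sets are therefore not 13 independent segments, and most of them come from 2 families. Trbv13-2 did not have this order, since replicate 1 was its highest array in both genotypes. The RMA values of the 16 alpha probe sets with distinct values were turned to the linear scale and summed. This gave log2 levels of 13.68, 13.76 and 13.93 in DUSP4-/- T cells, against 13.78, 13.68 and 13.89 in WT T cells. Such a sum weighs the brightest probe set most, here Trav9d-3 probe set 5 at 12.50 to 12.76, and is not a level of the whole locus.

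**Figure D5:**
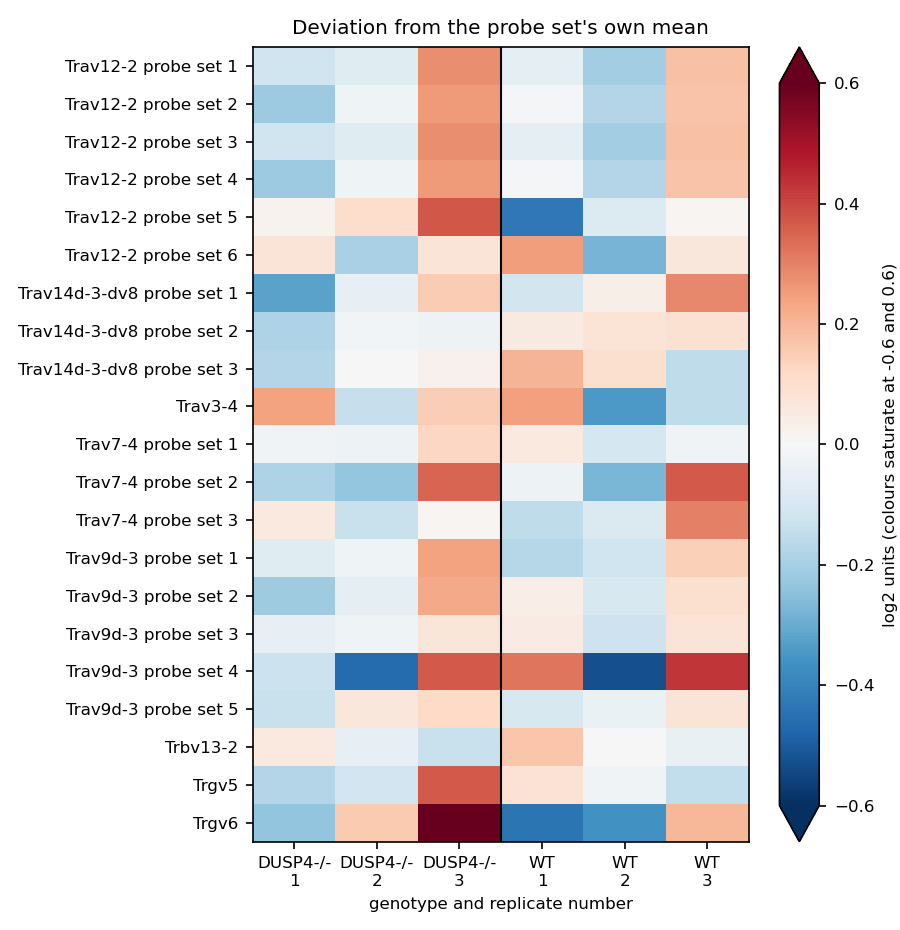
Deviation of each array from the probe set's own mean (color, log2 units), with DUSP4-/- replicates 1 to 3 left of WT replicates 1 to 3. The columns of replicate 3 are mostly red in both genotypes, while Trbv13-2 is highest in replicate 1.

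Genes of the receptor complex and the coreceptors did not share that order: replicate 3 was the highest array of both genotypes in 0 of the 6 measured. Over all probe sets the share was 19.2%, and 6 genes are too few to set 0 apart from it. Cd3g was highest in replicate 2 of both genotypes, and the others in replicate 1. Of the CD3 chains, which carry the signal of the receptor, 3 of 4 listed genes had a probe set and 0 were called. Cd3d read 9.56, 9.25 and 9.16 in DUSP4-/- T cells, against 9.58, 9.26 and 9.21 in WT T cells, highest in replicate 1 as Trbv13-2 was. Cd8a read 10.76, 10.45 and 10.32 in DUSP4-/- T cells, against 10.79, 10.56 and 10.40 in WT T cells, in the same order. Cd4 read 11.10, 10.96 and 11.03 in DUSP4-/- T cells, against 10.98, 10.82 and 10.91 in WT T cells, above its partner in each pair by 0.12, 0.15 and 0.12 (adjusted p = 1.00 from limma). The summed level of the 3 CD3 chains, averaged over the genotypes, was 12.77 in replicate 1, 12.66 in replicate 2 and 12.62 in replicate 3.

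Of 12 genes of V(D)J recombination, the cutting and joining of the segments, 10 had a probe set and 0 were called, with a median difference of 0.025. Rag2, a subunit of the recombinase, read 2.79 to 3.23 in DUSP4-/- T cells and 2.55 to 2.87 in WT T cells, at the 11.3rd percentile of the array. Dntt, which adds bases at the joints, read 4.94 to 5.45 in DUSP4-/- and 4.94 to 5.54 in WT T cells. Of 14 transcription factors known to act on the receptor loci, 12 had a probe set and 0 were called, with 8 differences above 0 and 4 below. Lef1, which binds the alpha enhancer, had pair differences of -0.051, 0 and 0.053, and Gata3 of -0.061, 0.11 and 0.42.

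Of the markers of other cells, those of B cells differed between replicate numbers. The summed level of 8 B cell markers was 9.02 to 10.12 in DUSP4-/- and 8.98 to 10.10 in WT T cells. Each of the 8 was highest in replicate 1 of both genotypes, whereas 12 of the 18 alpha probe sets were highest in replicate 3 of both. All 5 plasma cell markers had a difference below 0 (median -0.33, 0 called), but only 3 of the 5 lay below WT in each pair. Sdc1 differed by -0.010, with pair differences of 0.13, -0.18 and 0.019, and Derl3 lay above WT in pair 2 by 0.042. The summed level of the 5 markers was 9.49 to 10.27 in DUSP4-/- and 10.11 to 10.87 in WT T cells. Jchain, the joining chain of secreted antibodies, had pair differences of -0.85, -0.73 and -0.61 (limma, adjusted p = 1.00, and 0.752 with the block). The summed level of 7 myeloid markers was 8.43 to 8.87 in DUSP4-/- and 8.62 to 9.10 in WT T cells, averaging 8.72, 8.89 and 8.77 in replicates 1, 2 and 3, and that of 5 NK cell markers was 8.52 to 9.07 in DUSP4-/- and 8.73 to 9.16 in WT T cells. None of the markers was called, S100a8, a neutrophil gene, was at the 13.8th percentile (2.88 to 3.11 in DUSP4-/- and 3.10 to 3.37 in WT T cells), and the part of these cells in the V segment values was not tested.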

How the data were processed

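The authors deposited 1 log2 value per probe set and array, made by RMA (background correction, quantile normalization, summary over probes) in Affymetrix Expression Console; its version and the genome build of the array annotation are not given in the sources used here. The table held 41345 probe sets and 6 arrays, of which 25341 named at least 1 gene and were fitted. Gene names came from the platform annotation, and chromosomes from RefSeq (GRCm38.p6) by Entrez identifier, which matched for all 8 segments. The contrast of DUSP4-/- with WT came from limma 3.58.1 (R 4.3.3; lmFit, then eBayes), unblocked, with Benjamini-Hochberg adjustment over all 25341 probe sets and a threshold of 0.05; intervals are 95%. The procedure was tested on simulated data. The changes set there were larger than any V segment difference seen here, so the test does not show how often changes of this size would be found. Deviations from the genotype mean correlated over probe sets at 0.314 to 0.625 for samples with the same number, so the numbers, which the study describes as pairs, were also used as a block. Other cross-genotype pairs correlated at -0.496 to 0.101. Taking out the genotype means pushes these values down when those of the same number are positive, so they are not separate evidence. Having 3 arrays per genotype limits the precision. Nothing in the labels says that samples of 1 genotype came from separate mice, though the study calls the pairs independent, so p-values measure the spread between these samples. Alternatives were the block, each array left out, renormalization, array medians subtracted, other row filters, an intensity trend, array weights and an analysis of variance. The rule for naming probe sets took the brightest and the non-overlapping of each locus, the most and least variable, Trbv13-2 and every gamma segment; after the values were seen it was widened to all 21. Joining and constant segments were not analysed here, since no probe set carried such a name. For a list gene with several probe sets, the brightest was used. The members and lists were chosen with earlier results of these data known.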

Additional observations from a re-analysis of the deposited data

How the results depend on the processing

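No V segment probe set passed an adjusted p of 0.05 under any alternative run, in limma or in the analysis of variance. No listed gene passed under those run for the lists. The lowest adjusted p of a V segment was 0.719, with array weights. Blocking on replicate number gave 0.762 at the lowest and changed no call. The median SD of the alpha probe sets was 0.0873 under the replicate block, which takes that part of the spread out. Without 1 array at a time, the median difference was -0.075 (without WT replicate 2) to 0.091 (without WT replicate 3) for the alpha, -0.13 (without DUSP4-/- replicate 1) to -0.020 (without WT replicate 1) for the beta and 0.021 (without DUSP4-/- replicate 3) to 0.39 (without DUSP4-/- replicate 1) for the gamma locus. Probe sets without overlap then numbered 1 to 3 above WT and 1 to 2 below, with 3 above without WT replicate 3 and 2 without WT replicate 1, and 2 below without WT replicate 3 or DUSP4-/- replicate 1; fewer arrays overlap less by construction. The alpha median of 0.0043 was -0.011 after subtraction of the array medians and -0.013 with identical values counted once. Of the members, 13 turned sign under at least 1 alternative. Trav9d-3 probe set 3 was 0.0058 after quantile normalization again and 0.055 with array weights. Trav12-2 probe sets 2 and 4 were -0.0064 after subtraction of the array medians. With array weights, Trav12-2 probe set 6 was 0.051, Trav7-4 probe set 2 was 0.016 and Trav9d-3 probe set 2 was 0.021. Without 1 array, Trav12-2 probe sets 1 and 3 were -0.067 to 0.16, probe sets 2 and 4 -0.12 to 0.12 and probe set 6 -0.17 to 0.092. Trav7-4 probe sets 1, 2 and 3 were -0.0045 to 0.085, -0.23 to 0.13 and -0.13 to 0.098. Trav9d-3 probe sets 2, 3, 4 and 5 were -0.15 to 0.074, -0.062 to 0.037, -0.45 to 0.046 and -0.013 to 0.11, where probe set 4 turned from a larger difference, -0.15, without DUSP4-/- replicate 2 or WT replicate 3. Trgv5 was -0.12 to 0.15. The other 8 members, among them Trgv6 (0.16 to 0.62), Trav12-2 probe set 5 (0.20 to 0.42) and Trbv13-2, kept their sign under all alternatives run, the ranges being those without 1 array. A filter on dim probe sets removed both gamma segments. Counting identical values once, an alternative chosen after seeing the data, left 1 probe set above and 1 below WT without overlap.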
